A study of Mus musculus with 18 samples.

Results

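Whole lungs of Cox10-deficient mouse embryos were compared with lungs of littermate controls by RNA-seq, in 6 of the 18 samples of the series. The members are the 3 deficient and the 3 control samples of the Cox10 line, assigned to their groups by the labels, and the response was read across 14937 genes. The deficient embryos were Cox10f/f; ShhCre/+ and the controls were Cox10f/+; ShhCre/+. All 6 therefore carried a Cre allele at the Shh locus, which replaces a working copy of Shh, and the controls had already lost a single copy of Cox10 in the cells that express Cre. Lungs were taken at 14.5 dpc (days post coitus). Shh-Cre is active in the lung epithelium, so that mesenchyme, vessels and blood cells of a deficient lung keep Cox10. The other 12 samples of the series are lungs in which Rptor or Tfam was deleted by the same Cre, with their own controls.

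COX10 is a farnesyltransferase of the inner mitochondrial membrane that turns heme b into heme O, a step on the way to heme A. Heme A is built only into cytochrome c oxidase (complex IV), the enzyme that passes electrons to oxygen at the end of the respiratory chain, and without it the complex is not assembled. Cells in which the respiratory chain fails often turn on the integrated stress response, in which the transcription factor ATF4 raises genes for amino acid synthesis and import. At this stage of lung development the epithelium branches: the tips hold SOX9-positive progenitors and signal to the mesenchyme through SHH, and the mesenchyme signals back through FGF10.

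Each library held 29154754 to 29502212 reads assigned to genes, and 17671 to 17853 genes had a value above 0. Values are normalised read counts, that is, read counts scaled to make the libraries comparable. Lung identity was evident in every sample from Nkx2-1, the transcription factor that marks lung and thyroid epithelium, at 3387 to 3555 in controls and 2182 to 2857 in deficient lungs. The labels do not say how many embryos made a sample, and mutants came from several litters according to the methods, so that p-values measure the spread between these samples, which may be partly technical.

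A pair of libraries stood apart. Control replicate 3 held both Xist, the RNA of the inactive X chromosome in females, and RNA of the Y chromosome. Xist was 34750.3 in control replicate 1, 13.1 in control replicate 2 and 17950.7 in control replicate 3, and it was 40297 and 36743 in deficient replicates 1 and 2 and 13.8 in deficient replicate 3. Ddx3y, on the Y chromosome, was 1.99, 1989 and 914 in the controls and 0.998, 0 and 1984 in the deficient samples. Control replicate 3 also lay between the other 2 controls for 440 of the 482 genes (91.3%) at which these differed by more than 0.5 on the log2 scale, where the same share was 30.4% to 69.4% for each of the other 5 samples against the remaining 2 of its group. Control replicate 3 thus held material of both sexes, and whether it shares lungs with the other controls cannot be told. Fits that keep it treat it as an independent control. If it does share lungs with them, the spread of the controls is understated and the p-values are too low.

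Deficient replicate 3 differed in its globins. The ratio of summed embryonic globins (Hbb-y, Hba-x and Hbb-bh1) to summed adult globins, nearly all of which was Beta-s, was 8.19, 8.26 and 7.89 in the controls and 9.72 and 11.8 in deficient replicates 1 and 2, but 1.68 in deficient replicate 3. Adult alpha globin was at or near 0 in every library (Hba-a1 and Hba-a2, which are near-identical copies and so uncertain), so that the ratio rests on Beta-s. Of 12844 genes with a mean of at least 50, 63 were more than 2-fold above all 5 other samples in deficient replicate 3 and 29 more than 2-fold below. In each of the other 5 samples there were 0 or 1 above and at most 7 below. The genes that stood out in deficient replicate 3 included Sftpc, the surfactant protein of alveolar type 2 cells, at 4084 against 386 to 1422 elsewhere, and Hmga2, a chromatin protein of early embryonic tissue, at 3250.3 against 6785 to 8461 elsewhere. The part of blood content in these differences was not tested.

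**Figure D1:**
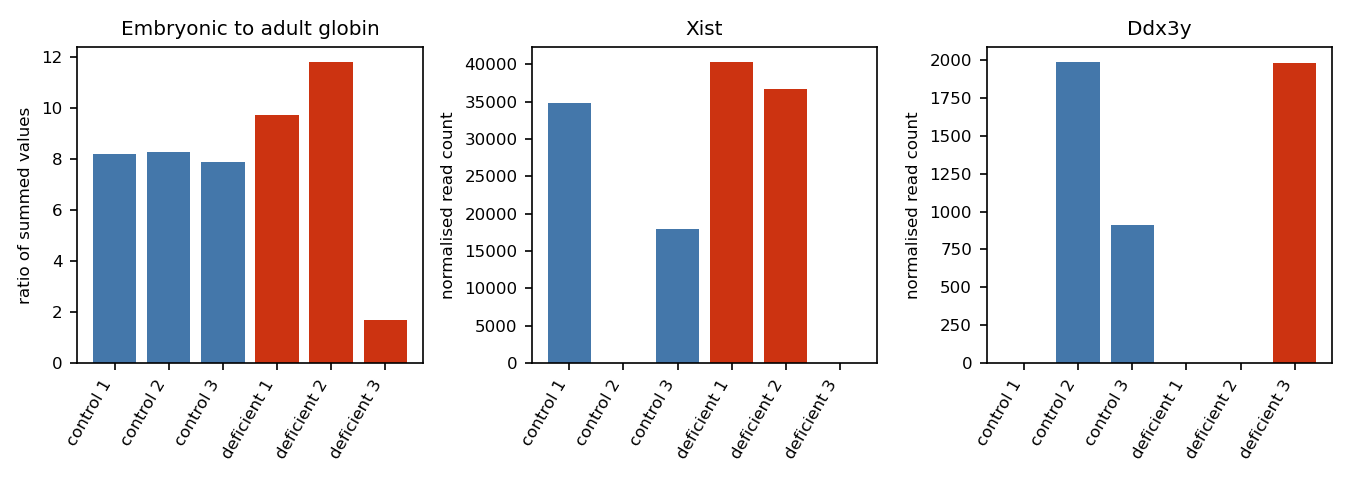
The ratio of summed embryonic to summed adult globins and the normalised read counts of Xist and Ddx3y in each of the 6 libraries (bars, blue for control and red for deficient, no error bars because each bar is a single library). The globin ratio was 1.68 in deficient replicate 3 and 7.89 to 11.8 elsewhere, and control replicate 3 held intermediate levels of both Xist and Ddx3y.

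The targeted gene did not pass the test in whole lungs. Cox10 (chr11:63962627-64079472, GRCm38) was 753, 812 and 824 in the controls and 809, 829 and 743 in the deficient lungs, and the groups overlapped. Its log2 fold change was -0.01 ± 0.0703 (SE, n = 3 and 3) with a limma adjusted p of 0.979. The files count reads over the whole gene, the controls are heterozygous for the deletion and cells outside the epithelium keep the gene, so that this value is no check of the deletion.

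The other genes of complex IV did not pass the test either. Of 16 genes for subunits of cytochrome c oxidase, all of them tested, none passed the threshold of an adjusted p below 0.05. An unadjusted limma p below 0.05 was found for 5 of the 16, against 13% of all genes. Their log2 fold changes ran from -0.46 to 0.84 with a median of -0.019. The highest was Cox4i2, a subunit isoform of lung, at 103, 120.0 and 90.9 in the controls and 154, 119.7 and 356 in the deficient lungs, with deficient replicate 3 far above the other samples. Of 28 assembly factors 26 were tested and none passed, with log2 fold changes from -0.18 to 0.13. The lowest of them was Sco1, a copper chaperone of complex IV, at -0.18 ± 0.068 (adjusted p = 0.344). Sco2 was listed at 0 in every sample and Pet117 did not exceed 1.01, so neither was tested. None of 11 genes of heme synthesis, 35 of complex I, 14 of complexes II and III or 16 of ATP synthase passed, and their medians lay between -0.031 and 0.013. At an unadjusted limma p below 0.05 there were 5 of the 11 heme genes, 2 of the 14 of complexes II and III, 1 of the 26 assembly factors and 0 of complex I and ATP synthase. Of all genes 13% were below it, and the heme genes had log2 fold changes from -0.195 to 0.175. Neither edgeR nor DESeq2 called a gene of these lists. Genes encoded in mitochondrial DNA were not analysed here.

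In all, 21 genes were higher and 50 lower in Cox10-deficient lungs, which is 0.141% and 0.335% of the 14937 genes tested, and 1945 genes (13%) had an unadjusted p below 0.05. The median log2 fold change over all genes was 0.0014. The values of all 71 genes did not overlap between groups, which was true of 21.3% of all genes tested. These counts depended on single samples. Without control replicate 1, 2 or 3 there were 0, 1 and 0 higher and 3, 4 and 3 lower genes (limma, with 1330, 1188 and 951 genes at an unadjusted p below 0.05), whereas without deficient replicate 3 there were 72 higher and 179 lower (0.482% and 1.2% of genes) and all 71 passed again. Deficient replicates 1 and 2 held almost no Ddx3y (0.998 and 0), whereas deficient replicate 3 held 1984. The fit without deficient replicate 3 therefore sets deficient lungs of female type against controls of both sexes. The part of sex in its calls was not tested. Only Cym, Cckar and Nedd9 passed in every fit that left out a sample.

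Without control replicate 3, the library with RNA of both sexes, all 71 genes kept the sign of their log2 fold change, and the median of the absolute shifts was 0.015. However, 68 of them no longer passed, with adjusted p from 0.0802 to 0.347 in limma. In that fit the log2 fold changes of Atoh1, Slc7a3 and Trib3 were 4.18, 1.60 and 1.23 (adjusted p of 0.247, 0.234 and 0.234), and those of Cldn4, Foxa1, Irx3 and Myocd were -0.73, -0.68, -0.82 and -1.37 (adjusted p of 0.103, 0.146, 0.103 and 0.188). The median of the epithelial markers was -0.39, that of airway smooth muscle genes -0.77 and that of the stress list 0.20, and no list had a member past the threshold.

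These 3 genes were lower. Cym encodes chymosin, an aspartic protease known from the stomach of young mammals, and was 216, 319 and 255 in the controls and 24.0, 20.1 and 20.8 in the deficient lungs. Cckar, a receptor for cholecystokinin, was 1410.4, 1509 and 1392 in the controls and 453, 428 and 332 in the deficient lungs. Nedd9, a scaffold protein of focal adhesions, was 3733, 4353 and 4086 in the controls and 1901, 1908 and 1976 in the deficient lungs. In each of them every deficient lung was below every control, and deficient replicate 3 lay near the other deficient lungs. The log2 fold changes were -3.53 ± 0.188 for Cym (adjusted p = 0.00116), -1.84 ± 0.115 for Cckar (adjusted p = 0.00138) and -1.07 ± 0.0624 for Nedd9 (adjusted p = 0.00118). When any 1 of the 6 samples was dropped, the adjusted p rose to at most 0.0243 for Cym, 0.0249 for Cckar and 0.0243 for Nedd9.

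**Figure D2:**
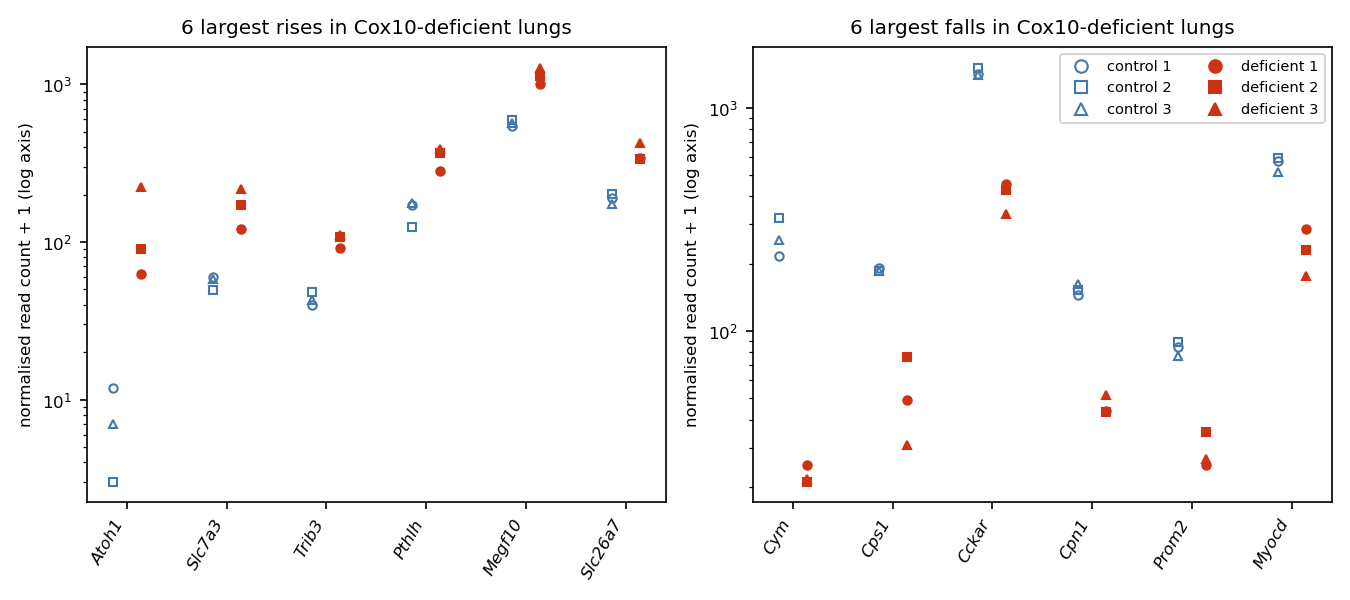
Normalised read count plus 1, on a log axis, of called genes with a mean of at least 50, showing the top 6 in each direction by log2 fold change. Open blue symbols are control samples and filled red symbols deficient samples, with the symbol shape giving the replicate number, and in each gene the groups are apart, such as Cym at 216 to 319 against 20.1 to 24.0.

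The other large falls were in genes of several kinds. Cps1, the mitochondrial enzyme that starts the urea cycle, was 189.6, 184 and 184 in the controls and 47.9, 75.4 and 29.7 in the deficient lungs (-1.94 ± 0.3, adjusted p = 0.0464). Cpn1, a subunit of carboxypeptidase N, was 144, 151 and 162 in the controls and 42.9, 42.2 and 50.4 in the deficient lungs (-1.73 ± 0.15, adjusted p = 0.00668). Tbx1, a T-box transcription factor of the pharyngeal region, was 612, 477 and 526 in the controls and 302, 257 and 188 in the deficient lungs (-1.13 ± 0.178, adjusted p = 0.0492). The controls of Cps1 lay close together, while its deficient values spread more widely. Snx22, a sorting nexin, Kif12, a kinesin, Nptx1, a neuronal pentraxin, and AI661453 fell, with log2 fold changes of -1.30, -1.18, -1.17 and -1.11, and in each the highest deficient lung was below the lowest control.

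Among the genes that rose, the largest log2 fold change was that of Atoh1, a basic helix-loop-helix transcription factor of hair cells, granule neurons and intestinal secretory cells. Atoh1 was 10.9, 2.02 and 6.0 in the controls and 61.9, 89.5 and 223 in the deficient lungs, with deficient replicate 3 the highest (4.10 ± 0.603, adjusted p = 0.0365). Only control replicate 1 reached the filter value of 10, so that Atoh1 was tested because of the deficient lungs. With controls this low, the size and rank of its change are uncertain. Slc7a3, a transporter that imports arginine and lysine, was 58.6, 48.4 and 57.0 in the controls and 119.8, 169.9 and 215 in the deficient lungs (1.57 ± 0.224, adjusted p = 0.0365). Trib3, a pseudokinase that ATF4 induces, was 38.7, 47.4 and 42.0 in the controls and 90.8, 107 and 109.7 in the deficient lungs (1.24 ± 0.169, adjusted p = 0.0312). In all 3 every deficient lung was above every control, and deficient replicate 1 was the lowest of the deficient lungs.

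Further rises were seen in genes of several kinds. Pthlh, the parathyroid hormone-related peptide that distal lung epithelium sends to the mesenchyme, was 171, 124 and 177 in the controls and 281, 367 and 388 in the deficient lungs. Megf10, a receptor for engulfment, was 545, 590.1 and 567 in the controls and 1008, 1126 and 1275 in the deficient lungs, the rise with the lowest adjusted p (0.00668). These values lay well apart between groups, with deficient replicate 3 the highest in each. The vessel genes Calcrl, a receptor for adrenomedullin, and Thbd, thrombomodulin, rose by 0.74 and 0.60 on the log2 scale, and the axon guidance genes Plxna4 and Sema3d by 0.76 and 0.59. Epha2, an ephrin receptor, rose by 0.64 and Adamts1, a matrix protease, by 0.58. Slc26a7, Lrfn5 and Serpinb8 rose by 0.96, 0.82 and 0.79.

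Vessel markers were not called. None of 15 tested markers of vascular endothelium passed in limma, edgeR or DESeq2 and 0 had an unadjusted p below 0.05, although all had a log2 fold change above 0 (0.099 to 0.33), and their median fell from 0.26 to 0.078 without deficient replicate 3. Their summed values were 37740 to 39210 in the controls and 42050, 38940 and 58370 in the deficient lungs, so that only deficient replicate 3 was far from the controls. In the fit without this sample the log2 fold changes of Calcrl and Thbd were 0.62 and 0.56, with adjusted p of 0.00456 and 0.0123.

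Of 24 genes in a list of general epithelial markers 6 were among the 50 that fell, against 0.335% of all genes, and none rose. The 6 were the tight junction gene Cldn4, the epithelial splicing factor Esrp2, the epithelial transcription factors Grhl2, Foxa1 and Foxa2, and Prom2, a protein of membrane protrusions. Foxa1 was 1660.5, 1499.9 and 1524 in the controls and 905, 985 and 1072 in the deficient lungs. Cldn4 was 1114, 1018 and 1074 in the controls and 608, 672 and 651 in the deficient lungs. The log2 fold change was -0.66 ± 0.076 for Foxa1 (adjusted p = 0.0184) and -0.73 ± 0.0673 for Cldn4 (adjusted p = 0.00668). The median over the 24 was -0.38, against 0.0014 over all genes, and 22 of the 24 were negative, as were 7414 of all 14937 genes. In a whole lung, fewer epithelial cells and less of these RNAs in each cell cannot be told apart.

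The widely used epithelial markers Cdh1, Epcam, Nkx2-1 and Krt8 were lower in deficient replicates 1 and 2 but less so in replicate 3. Cdh1, E-cadherin, was 3651, 3806 and 3711 in the controls and 2441, 2632 and 3255 in the deficient lungs. Epcam was 4689, 4579 and 4566 in the controls and 3342, 3620.1 and 4351 in the deficient lungs. For both, every deficient lung was below every control, and deficient replicate 3 was nearest to the controls. With all samples neither passed (adjusted p = 0.139 for Cdh1 and 0.26 for Epcam), and without deficient replicate 3 both did (0.00228 and 0.00695), with log2 fold changes of -0.55 and -0.41. Nkx2-1 and the keratin gene Krt8 followed the same course, with adjusted p of 0.1 and 0.18 with all samples and 0.0123 and 0.00293 without it. In that fit 16 of the 24 epithelial genes were lower, against 1.2% of all genes, and none higher, with a median of -0.49. Some members of the list were instead above every control in deficient replicate 3. Among them were Krt19 (1081.5 against 777 to 874), Cldn3 (1372 against 1063 to 1125.5) and St14 (1878 against 1685 to 1745).

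Further genes that fell, picked here after their values were seen, were Cftr, the chloride channel mutated in cystic fibrosis (-0.99), Ano1, a calcium-activated chloride channel (-0.77), Tmprss2, a membrane serine protease (-0.82), Krt7 (-0.62), Cdh3, P-cadherin (-0.52), and Celsr1, a planar cell polarity cadherin (-0.57). Aldh1a7, an aldehyde dehydrogenase, was 2352, 2195 and 2329 in the controls and 1394, 1092 and 1043 in the deficient lungs (-0.97 ± 0.105, adjusted p = 0.013). It was the only one of 14 tested genes of a proximal airway list to pass. Sox2, the transcription factor of proximal airways, was 559.8, 386 and 491 in the controls and 503, 292 and 207 in the deficient lungs, which overlapped (-0.60 ± 0.297, adjusted p = 0.436). Foxj1, which drives multiciliated cells, was 43.4 to 53 in the controls and 23.0 to 36.6 in the deficient lungs (-0.80 ± 0.238, adjusted p = 0.26), and Trp63, a basal cell gene, had values of 15.1 to 37.7 over all 6 samples and an adjusted p of 0.676.

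Of distal tip genes 1 of 21 fell and none rose. Irx3, an Iroquois homeobox gene of the distal epithelium, was 2554, 2405 and 2471 in the controls and 1268, 1468 and 1498 in the deficient lungs (-0.81 ± 0.071, adjusted p = 0.00668), and it was the only tip gene past the threshold in limma and in edgeR, while DESeq2 called 12 of the 21, against 2.18% of all genes. Its relative Irx5 fell by 0.67 on the log2 scale (adjusted p = 0.0125). Without deficient replicate 3 a further tip gene was lower, Etv5 (-0.60, adjusted p = 0.0243), while its relative Etv4 (0.52, adjusted p = 0.0448), Id2 (0.40, adjusted p = 0.0135) and Gata6 (0.26, adjusted p = 0.0459) were higher. Etv4 and Etv5 are both targets of FGF signalling. Etv5 was 11696, 11853 and 11412 in the controls and 6724, 8743 and 8807 in the deficient lungs, whereas Etv4 was 959.8, 1167 and 1119 in the controls and 1435, 1667 and 1455 in the deficient lungs. The groups did not overlap in either gene. With all samples the adjusted p was 0.08 for Etv5, 0.079 for Etv4, 0.0571 for Id2 and 0.08 for Gata6. Sox9 was 1853 to 1976 in the controls and 1469, 1959 and 1530.2 in the deficient lungs (-0.23 ± 0.104, adjusted p = 0.404).

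Alveolar genes were split by deficient replicate 3. Ager, a surface receptor of type 1 cells, was 422, 378 and 371 in the controls and 207, 237 and 254 in the deficient lungs (-0.75 ± 0.11, adjusted p = 0.0365), and Sema3e, a guidance molecule in the same list, fell by 0.64. These were the only 2 of 18 tested alveolar genes past the threshold. Sftpc was 1422, 1241 and 1419 in the controls and 386, 562 and 4084 in the deficient lungs, so that replicates 1 and 2 were below and replicate 3 above every control. Its log2 fold change was -0.50 ± 0.754 (adjusted p = 0.79) with all samples and -1.54 (adjusted p = 0.00324) without deficient replicate 3. In the opposite direction Cebpa, a transcription factor of type 2 cells, passed without that sample (0.50, adjusted p = 0.032).

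**Figure D3:**
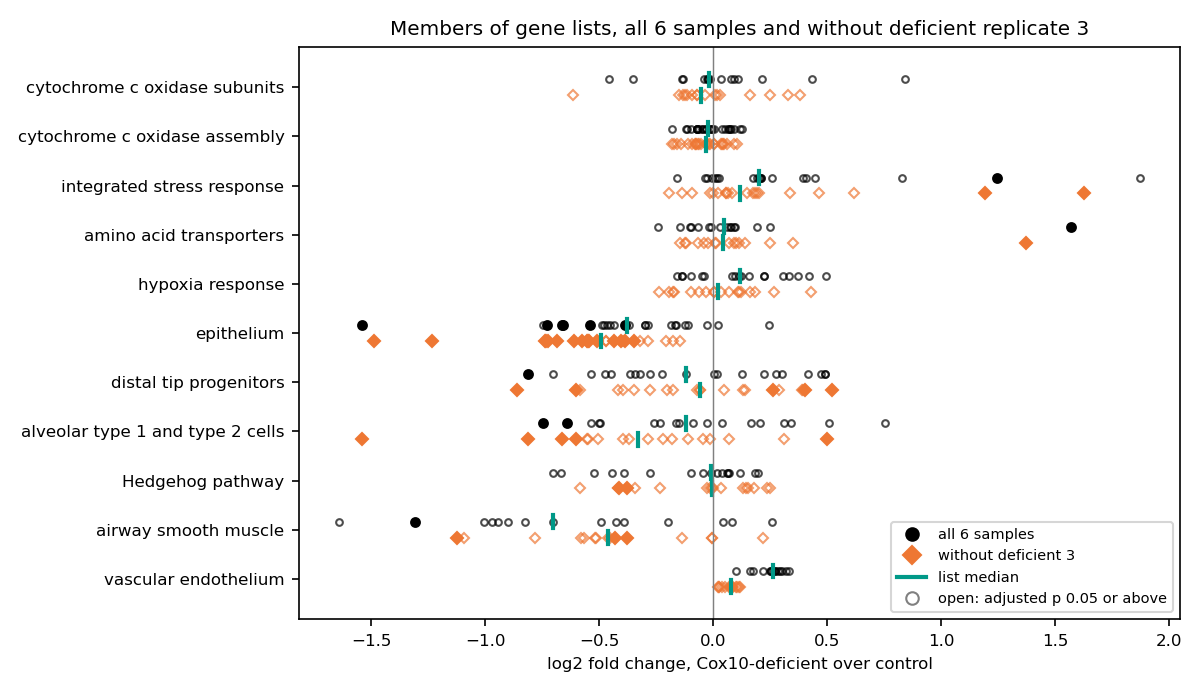
Log2 fold change of each tested member of 11 gene lists, deficient over control, with all 6 samples (black circles) and without deficient replicate 3 (orange diamonds), filled where the adjusted p was below 0.05, with the list median as a green bar. The epithelial list has its median at -0.38 and -0.49, while the lists of cytochrome c oxidase lie close to 0.

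Signals between epithelium and mesenchyme were next examined, ligands first. Shh, the ligand made by the epithelium, was 988, 1111 and 1008 in the controls and 567, 836 and 539 in the deficient lungs. Every deficient lung was below every control (-0.70 ± 0.157), but the adjusted p was 0.134. Its receptor and target Ptch1 was 6245 to 7435 in the controls and 4334 to 5757 in the deficient lungs (-0.44 ± 0.106, adjusted p = 0.162). The antagonist Hhip, also a target of the pathway, had an adjusted p of 0.062 with all samples and of 0.0456 without deficient replicate 3, with a log2 fold change in the latter of -0.38. Gli1, a transcription factor and target, was 3931 to 5024 in the controls and 3670.4 to 4449 in the deficient lungs (-0.099 ± 0.103, adjusted p = 0.688). None of 17 Hedgehog genes passed with all samples in limma, 8 had an unadjusted p below 0.05 (against 13% of all genes), DESeq2 called 6 (against 2.18% of all genes) and edgeR 0, and their median was -0.0094.

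Fgf10, the mesenchymal ligand that draws epithelial buds outward, was higher in every deficient lung. It was 1386, 1472 and 1357 in the controls and 2373, 2482 and 3781 in the deficient lungs, with no overlap and replicate 3 the highest. Its log2 fold change of 1.00 ± 0.16 did not pass (adjusted p = 0.0525), nor did it without control replicate 3 (0.98, adjusted p = 0.326), and it passed without deficient replicate 3 (0.79, adjusted p = 0.00114). Its epithelial receptor Fgfr2 was 4931 to 5861 in the controls and 4157 to 4397 in the deficient lungs (-0.32 ± 0.0688, adjusted p = 0.123). Tgfb2, a ligand of the TGF-beta family, fell by 0.33 (adjusted p = 0.0265) and was the only one of 20 mesenchymal signals past the threshold. Bambi, a decoy receptor for this family, was among the genes that rose (0.30, adjusted p = 0.0456).

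Of airway smooth muscle genes 1 of 15 fell past the threshold, and 10 had an unadjusted limma p below 0.05, against 13% of all genes. Myocd, the coactivator that switches on the smooth muscle programme, was 576, 593 and 513 in the controls and 285, 229 and 175 in the deficient lungs (-1.31 ± 0.169, adjusted p = 0.0265). The log2 fold changes of 12 of the 15 were negative, with a median of -0.70. The contractile gene Myh11 was 3189, 2244 and 2545 in the controls and 2352, 1343 and 809.6 in the deficient lungs, which overlapped (adjusted p = 0.331). Without deficient replicate 3 the median of the list was -0.46, and 3 of the 15 were lower in limma, against 1.2% of all genes. Myocd was at -1.13 in that fit (adjusted p = 0.00456).

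Of the integrated stress response, 1 of 20 tested genes rose and none fell. This was Trib3, and Slc7a3 was the only one of 16 amino acid transporters to pass. Chac1, which degrades glutathione, was 14.9, 19.2 and 20.0 in the controls and 42.9, 76.4 and 95.9 in the deficient lungs (1.87 ± 0.318, adjusted p = 0.0607). Asns, asparagine synthetase, was 1409, 1586 and 1540.0 in the controls and 2079, 2673 and 2159.9 in the deficient lungs (0.60 ± 0.098, adjusted p = 0.0544). Aldh1l2, a mitochondrial enzyme of folate metabolism, was 207, 225 and 199 in the controls and 328, 363 and 552 in the deficient lungs (0.94 ± 0.186, adjusted p = 0.0953). In all 3 every deficient lung was above every control. Chac1, Asns, Aldh1l2 and Shmt2, the mitochondrial serine hydroxymethyltransferase, passed without deficient replicate 3 (adjusted p of 0.0496, 0.0254, 0.0172 and 0.0468). Sesn2 and Stc2 had adjusted p of 0.0529 and 0.0971 in that fit. Atf4 itself was 4070.3 to 4402 in the controls and 4132 to 4569 in the deficient lungs (0.024 ± 0.0553, adjusted p = 0.864), which does not bear on ATF4 protein, whose level is set in translation. The median log2 fold change of the stress list was 0.20 with all samples and 0.12 without deficient replicate 3.

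ATF4 acts with C/EBP partners on a composite element whose core is TGATGNAA. The element was searched for on both strands in RefSeq promoter windows of GRCm38.p6, 250 bases before to 50 after the start site. It was in a window of 14 of the 46 genes of the stress, amino acid synthesis and transport lists that had one (30.4%), against 1219 of all 27025 genes with a window (4.51%). The lists were drawn up around the response in which ATF4 acts, so that this share is no result of the Cox10 comparison. Among the genes that rose it was in 2 of 11, Trib3 and Calcrl, and among those that fell in 2 of 38, Adcy7 and Ager. Slc7a3 and Aldh1l2 had no window in the table. The matches of Trib3, of Chac1 and Asns, which passed only without deficient replicate 3, and of 2 genes that passed in neither fit are shown so that they can be compared letter by letter, each as 30 bases read 5′ to 3′ on the strand that carries the element, with the element in capitals.
Trib3 (chr2:152344028-152344057, gene on the minus strand): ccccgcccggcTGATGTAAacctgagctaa
Chac1 (chr2:119351038-119351067, gene on the plus strand): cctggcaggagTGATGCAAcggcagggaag
Asns (chr6:7693214-7693243, gene on the minus strand): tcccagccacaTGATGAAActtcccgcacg
Pck2 (chr14:55540152-55540181, gene on the plus strand): ctgtaagatacTGATGTAActttgaaggct
Slc7a11 (chr3:50443661-50443690, gene on the minus strand): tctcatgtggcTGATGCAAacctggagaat
The elements of Trib3 and Pck2 have the same letters, as do those of Chac1 and Slc7a11, and the window of Slc7a11 holds a further match on the other strand. Pck2, a mitochondrial enzyme of gluconeogenesis, was 2549.8 to 2673 in the controls and 2862 to 3148 in the deficient lungs (0.21 ± 0.0534, adjusted p = 0.194). Slc7a11, the cystine importer, was 72.5 to 92.9 in the controls and 78.4 to 99.8 in the deficient lungs (0.029 ± 0.172, adjusted p = 0.953). The presence of the letters is a description of the windows and was not tested against binding.

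Whether these stress genes responded as in lungs without Tfam, the factor that maintains and transcribes mitochondrial DNA, was tested as the difference of the effects in both lines. The effect differed for 4 of 14703 genes (0.0272%). Of these Asns and Atf5, a transcription factor related to ATF4, had a smaller effect in the Cox10 line, where neither passed the threshold. The log2 fold change of Asns was 0.60 in the Cox10 line and 1.57 in the Tfam line (difference -0.97 ± 0.119, adjusted p = 0.0126). For Atf5 it was 0.18 and 1.28 (difference -1.10 ± 0.145, adjusted p = 0.0126), and Atf5 was 951, 957 and 1020.4 in Cox10 controls and 951, 1079 and 1304 in Cox10-deficient lungs. The other 2 genes were Ctse, cathepsin E (-0.059 and -2.01), and Gm6548, a transcribed pseudogene whose reads may be shared with related copies (-0.036 and 2.07). Without control replicate 3, limma called 0 genes for this difference, with 459 at an unadjusted p below 0.05, and 25 passed without deficient replicate 3.

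Over the 3 stress and amino acid lists together, 2 of 52 genes rose in the Cox10 line, where 0.141% of 14937 genes tested were higher. In the Tfam line 25 of the 52 rose, where 2.03% of 15053 genes tested were higher, so that the counts of the lines are not directly comparable. The log2 fold change was smaller in the Cox10 line for 42 of the 52 (80.8%), against 49.1% of all 14703 genes, and the medians were 0.084 and 0.25. Chac1, Slc7a3, Trib3, Aldh1l2 and Stc2 followed this order, at 1.87, 1.57, 1.24, 0.94 and 0.83 in the Cox10 line and 3.47, 3.23, 2.20, 2.32 and 1.85 in the Tfam line, and for none of these 5 did the difference pass (adjusted p of 0.285, 0.0618, 0.637, 0.0618 and 0.356).

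**Figure D4:**
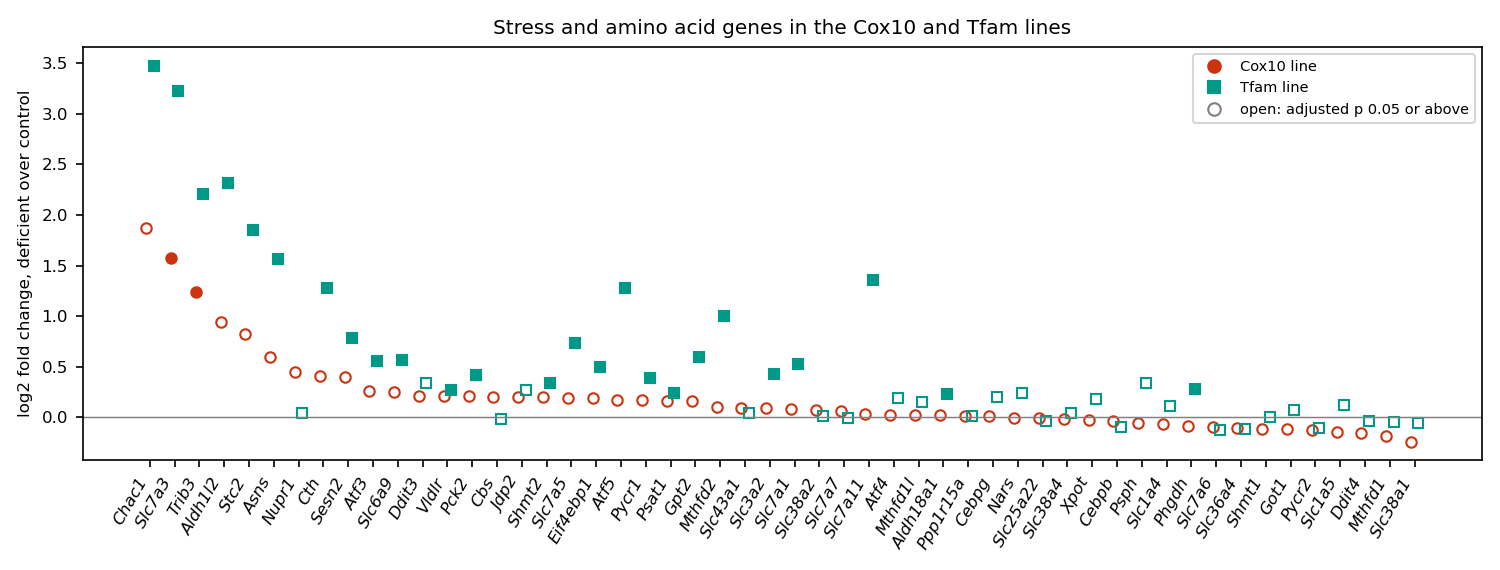
Log2 fold change, deficient over control, of all 52 tested genes of the stress, amino acid synthesis and transport lists in the Cox10 line (red circles) and the Tfam line (green squares), filled where the adjusted p was below 0.05 within the line. In the Cox10 line 2 are filled and in the Tfam line 25, and for 42 genes the Cox10 circle lies below the Tfam square. Of all genes tested 0.141% were higher in the Cox10 line and 2.03% in the Tfam line.

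Between the Cox10 and the Rptor line, which lacks mTORC1 signalling in the epithelium, the effect differed for 784 of 14679 genes (5.34%), 21 of them among the 71 genes called here. Of these 71, 68 had the same sign in the Rptor line and 64 also passed there, where 34.8% of all genes passed. In the Tfam line 70 had the same sign and 59 also passed, where 4.66% of all genes passed, and the effect differed for 0 of the 71. Cckar fell by 1.84 in the Cox10 line and by 4.26 in the Rptor line (difference 2.42, adjusted p = 0.0011), and Tmem54, a membrane protein, was at -1.08 and -2.51 (difference 1.43, adjusted p = 0.00456). Lrfn5, a synaptic adhesion protein, rose by 0.82 and 2.30 (difference -1.48, adjusted p = 0.0288). Tgfb2 was lower in the Cox10 line and at 0.071 in the Rptor line (difference -0.40, adjusted p = 0.00267). Asns was higher in Cox10-deficient and lower in Rptor-deficient lungs (0.60 and -0.75, difference 1.35, adjusted p = 0.0011), without passing within the Cox10 line. Removal of control replicate 3 left 328 such genes, and removal of deficient replicate 3 raised them to 1568.

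The 180 genes called only without deficient replicate 3 were set beside that sample. In 143 of them deficient replicate 3 lay beyond all controls on the same side as replicates 1 and 2, in 11 it lay within the range of the controls, and in 26 beyond it on the other side. Of all genes tested 21.3% had groups that did not overlap. The 180 genes were called against the same controls, so that the 143 are no separate test of them. The largest rise in this fit among these genes was that of Myh3, an embryonic muscle myosin, at 78.4, 46.4 and 71.0 in the controls and 275, 248 and 4.94 in the deficient lungs. Summed markers of skeletal muscle were 223 to 352 in the controls and 722, 629 and 135 in the deficient lungs, and their part in the value of Myh3 was not tested. Pttg1, securin, a regulator of chromosome separation, was 479 to 511 in the controls and 909, 959 and 482 in the deficient lungs. Both genes were high in 2 deficient lungs and at or below the controls in the third. Lepr, the leptin receptor, and Pcsk6, a proprotein convertase, were higher in all 3 deficient lungs, Lepr at 369 to 380.1 in the controls and 533, 624 and 785 in the deficient lungs. Among the falls, Tinag, a protein of basement membranes, was 147, 103 and 155 in the controls and 32.9, 21.1 and 68.2 in the deficient lungs. Gpx2, a glutathione peroxidase of epithelia, was 405 to 424 in the controls and 176, 158 and 316 in the deficient lungs, below every control in each. Muc1, a membrane mucin, was 221 to 227 in the controls and 99.8, 85.5 and 279.8 in the deficient lungs, so that replicate 3 was above them.

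Embryonic globins behaved in the same way. Hbb-y was 31154 to 32835 in the controls and 44383, 41356 and 23364 in the deficient lungs, and Hba-x was 4408 to 4725 in the controls and 5731, 5653 and 3330.4 in the deficient lungs. Replicates 1 and 2 were above and replicate 3 below every control in both genes. With all samples the log2 fold changes were 0.13 (adjusted p = 0.818) and 0.05 (adjusted p = 0.918). Without replicate 3 they were 0.42 and 0.31, given with no test because the globins are what set that sample apart. Of 10 other tested erythroid genes none passed with all samples, and 2 had an unadjusted p below 0.05.

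None of 23 glycolytic, 18 hypoxia, 19 tricarboxylic acid cycle, 18 antioxidant, 21 aminoacyl-tRNA synthetase, 14 mitochondrial chaperone or 14 endoplasmic reticulum chaperone genes passed in limma, with medians from -0.13 to 0.12 and 0 to 4 genes of each at an unadjusted p below 0.05, and DESeq2 called 1 endoplasmic reticulum chaperone gene. Of 16 p53 and apoptosis genes none passed and 2 had an unadjusted p below 0.05 (median 0.11). Of 20 proliferation genes none passed, 5 had an unadjusted p below 0.05, and 19 were negative (median -0.095). No tested marker of cartilage, mesothelium, macrophages, neurons and glia, neuroendocrine cells, liver, thymus, thyroid, oesophagus and stomach, or cardiac or skeletal muscle passed in limma, with 0 to 3 of each at an unadjusted p below 0.05, while DESeq2 called 3 of 13 neuroendocrine, 1 of 10 cartilage and 1 of 13 neuronal or glial genes, against 2.18% of all genes. Summed cardiac markers varied within both groups, at 8133, 1486 and 5133 in the controls and 8120, 1577 and 1419 in the deficient lungs, and control replicate 3 again lay between the other 2 controls.

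**Figure D5:**
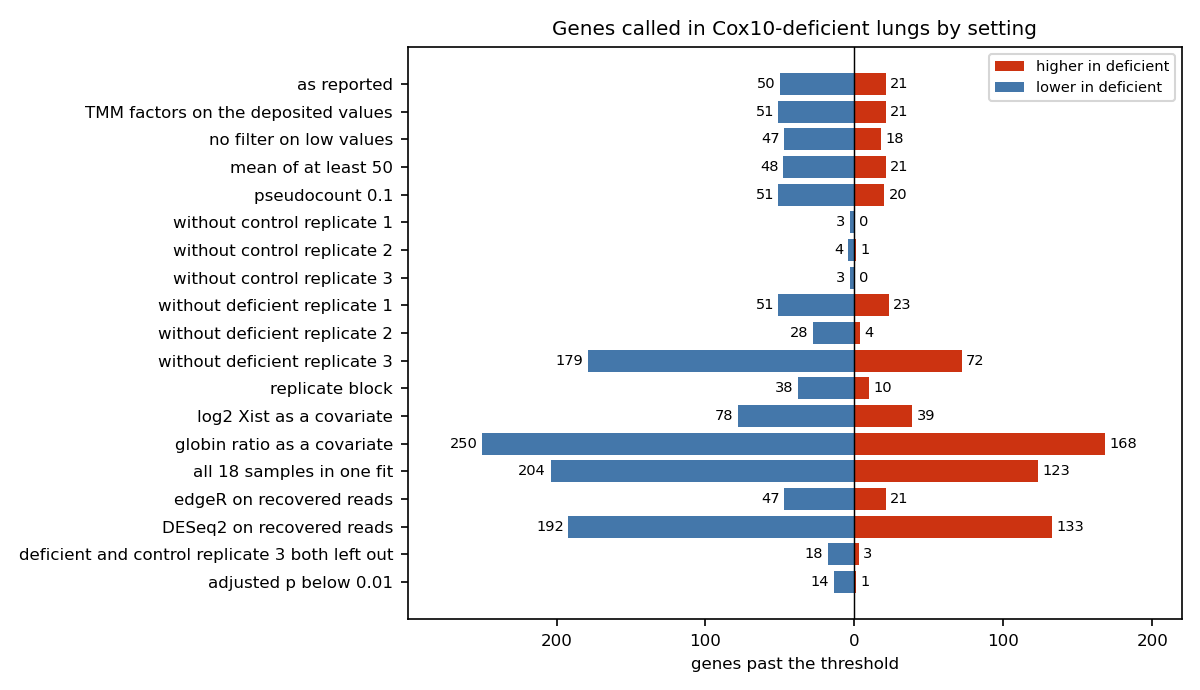
Number of genes past the threshold in Cox10-deficient against control lungs under each setting, with genes higher in deficient lungs to the right (red) and genes lower to the left (blue). The counts were 21 and 50 as reported, at most 1 and 4 without a control, and 72 and 179 without deficient replicate 3.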

How the data were processed

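RNA-seq of whole 14.5 dpc lungs was analysed from the table of the Cox10 line, with the Tfam and Rptor tables for differences between lines. The authors trimmed, aligned and counted reads (Trim Galore, HISAT2, featureCounts and DESeq2 on mm10 are named in the submitters' processing notes, without versions) and deposited a normalised signal per gene. In each sample 100% of the deposited values were multiples of the value of 1 read, within 0.05, so whole reads were recovered for edgeR 4.0.16 and DESeq2 1.42.0. The deposited fold changes and p-values of the authors were not used. Values were analysed as log2(value + 1), which understates changes of low genes, for genes with at least 10 in at least 3 of 6 samples, with limma 3.58.1 (lmFit, eBayes with trend, R 4.3.3). The Benjamini-Hochberg adjusted p was taken over all genes tested, two-sided, with a threshold of 0.05. The difference between lines was a contrast of contrasts over 12 samples, whose tables were normalised separately. Fits that left out a sample kept the same genes.

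Genes with values per sample were the 12 strongest called genes in each direction, if their mean reached 50 and the groups were apart, the 10 largest each way called only without deficient replicate 3, called members of each list or up to 4 with the smallest p, genes the study follows, and genes that differed between lines; others in the text were chosen after their values were seen. The comparison, members and lists were chosen with earlier results of these data known. Symbols of 8 list genes were matched through synonyms. In 4 rows the symbol had become a date, and these are not named. The fits were checked on simulated counts. Alternatives were other scaling, filters, pseudocount, covariates, all 18 samples, leaving out each sample and, chosen after seeing the data, edgeR, DESeq2 and leaving out replicate 3 of both groups. Values of some genes that the rule names are not reported here.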

Additional observations from a re-analysis of the deposited data

Results flagged for a closer look

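The effect of the deletion differed between the Cox10 and Tfam lines for 4 genes, by a contrast of the effects over 12 samples in limma. On the log2 scale, Cox10 minus Tfam, the difference was -0.97 for Asns, -1.10 for Atf5, -2.11 for Gm6548 and 1.95 for Ctse, each with an adjusted p of 0.0126. None of the 4 passed within the Cox10 line (adjusted p of 0.0544, 0.513, 0.959 and 0.911), and the values of Gm6548 in its controls ran from 178 to 365.

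The effect differed between the Cox10 and Rptor lines for 784 genes. On the log2 scale, Cox10 minus Rptor, the difference was -1.48 for Lrfn5, 2.42 for Cckar, 1.43 for Tmem54, -0.40 for Tgfb2 and 1.35 for Asns. Cckar and Tmem54 fell less and Lrfn5 rose less in the Cox10 line. Asns did not pass within the Cox10 line.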

How the results depend on the processing

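With 21 genes higher and 50 lower as reported, leaving out each sample in turn gave 0 to 72 higher and 3 to 179 lower. A covariate gave 39 and 78 (log2 Xist) or 168 and 250 (globin ratio), all 18 samples in a single fit 123 and 204, and an adjusted p below 0.01 gave 1 and 14. Among alternatives chosen after seeing the data, DESeq2 gave 133 and 192, edgeR 21 and 47, and leaving out replicate 3 of both groups 3 and 18. TMM scaling, the filters on low values and a pseudocount of 0.1 stayed within 18 to 21 higher and 47 to 51 lower. Genes that differed between lines numbered 0 to 25 (Tfam) and 328 to 1568 (Rptor) when a sample was left out. The cause of these shifts was not tested.

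Whether the replicate numbers pair the samples could not be settled with 3 samples per group. Correlations of the deviations of same-numbered samples were 0.447, 0.202 and 0.0488, and only replicate 1 correlated best with its own number. A replicate block gave 10 higher and 38 lower, of which 38 were among the 71, and 3 (Tfam) and 1057 (Rptor) genes that differed between lines.

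None of the 71 called genes changed sign. Some genes that were not called did, none past the threshold with the other sign. With each sample left out in turn, Cox10 ran from -0.045 to 0.041, Myh3 ran from -0.75 to 2.02, Sftpc ran from -1.54 to 0.16, Hbb-y ran from -0.046 to 0.42, Hba-x ran from -0.082 to 0.31, Gm6548 ran from -0.31 to 0.21, Ctse ran from -0.17 to 0.032, Atf4 ran from -0.013 to 0.060 and Slc7a11 ran from -0.089 to 0.10. With the globin covariate Cox10 was at 0.020 and Slc7a11 at -0.026, and in edgeR Sftpc was at 0.31. Without replicate 3 of both groups Cox10 was at 0.066, Gm6548 at 0.047, Atf4 at -0.00024 and Slc7a11 at -0.0076. Reads per library ran from 29154754 to 29502212, and the part of depth in these shifts was not tested.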
